A study of Mus musculus with 30 samples.

Results

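The glutathione, glucuronide and sulfate conjugation enzymes of the liver were followed across 2 mouse strains and 3 dietary iron levels. Members were all non-control array probes whose gene name began with Gsta, Gstm, Gstp, Gstt, Gstk, Gsto, Gstz, Mgst, Ugt1, Ugt2, Ugt3 or Sult followed by a digit. The rule found 62 of 41174 probes, which stood for 46 of the array's 28786 named genes: 22 glutathione transferases, 13 UDP-glucuronosyltransferases and 11 sulfotransferases. All 46 genes were among the 21071 genes tested, and 43 of them were well above background on all 30 arrays. Sult2a2, Sult2b1 and Sult3a1 were near background on many arrays, and 3 further probes, 1 each of Gsto2, Sult2a2 and Sult4a1, were too dim to be kept.

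These enzymes carry out the second phase of detoxification, in which a reactive or fat-soluble compound is joined to a water-soluble group and then exported into bile or blood. Glutathione transferases add glutathione to electrophiles, among them the aldehydes that form when iron oxidises membrane lipids. UDP-glucuronosyltransferases attach glucuronic acid to bilirubin, steroids and drugs, and sulfotransferases attach sulfate to phenols, steroids and amines. In mouse liver many of these genes are known to be induced through the transcription factor NRF2, and several differ between males and females.

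The livers came from DBA/2 (D2) and C57BL/6 (B6) mice, both inbred strains with no engineered allele named in the labels. Each strain was fed an iron-deficient diet (under 3 mg iron per kg), an iron-enriched diet (8.3 g per kg) or an iron-balanced diet (200 mg per kg). There were 5 mice in each of the 6 groups, with 1 mouse per 1-colour array, and the labels give each mouse a code of its own. The labels used here state neither the sex and age of the mice nor how long they were fed.

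The median processed intensity of an array ran from 65.7 to 128, and 62.5% to 78.5% of its probes were well above background. The liver label was checked against 6 hepatocyte genes, of which the 4 tested (Alb, Apoa1, Ttr and Cps1) had a mean log2 level of 16.7 to 16.8 in every group. In whole liver, fewer cells of a type and less RNA per cell cannot be told apart. All levels below are log2 of the quantile-normalised intensity, with a floor at 3.80. Levels of different probes are not compared with each other, since brightness depends on the probe. A gene was called where limma's moderated test gave an adjusted p (Benjamini-Hochberg over all 21071 genes) under 0.05, and differences are given with their standard error. Close relatives such as Gsta1 and Gsta2, the Gstm and Ugt2b genes, and the Ugt1a genes, which share exons, may bind each other's probes. The extent of this is not known from the arrays, which leaves the level of any single one of them uncertain.

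Of the members that passed the test as higher in enriched B6 livers, those with the largest rises and an entry in the RefSeq promoter table (GRCm38.p6) were Sult3a1, Gsta2, Mgst3 and Gstm5, and their start regions are shown so that the sequence can be set beside the response. Each runs from 250 bases before the gene's start to 50 bases after it, 5′ to 3′ on the gene's strand. Capitals mark matches to any of the 5 motifs searched on both strands.
Sult3a1: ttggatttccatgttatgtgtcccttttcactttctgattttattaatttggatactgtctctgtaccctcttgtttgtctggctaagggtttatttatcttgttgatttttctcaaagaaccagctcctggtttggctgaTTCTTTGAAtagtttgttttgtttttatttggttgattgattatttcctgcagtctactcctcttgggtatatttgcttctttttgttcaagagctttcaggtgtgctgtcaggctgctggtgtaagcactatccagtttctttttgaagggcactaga
Gsta2: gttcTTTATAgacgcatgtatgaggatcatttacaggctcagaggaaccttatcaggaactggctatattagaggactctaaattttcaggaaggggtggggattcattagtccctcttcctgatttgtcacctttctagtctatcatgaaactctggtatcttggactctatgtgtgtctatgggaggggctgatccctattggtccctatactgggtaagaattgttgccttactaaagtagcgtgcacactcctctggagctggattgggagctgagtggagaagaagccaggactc
Mgst3: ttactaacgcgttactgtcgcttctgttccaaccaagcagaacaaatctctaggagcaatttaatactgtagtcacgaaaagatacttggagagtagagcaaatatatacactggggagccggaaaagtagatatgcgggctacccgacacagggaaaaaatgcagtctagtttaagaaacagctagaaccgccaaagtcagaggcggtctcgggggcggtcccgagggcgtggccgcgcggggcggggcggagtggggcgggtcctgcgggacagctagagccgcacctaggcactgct
Gstm5: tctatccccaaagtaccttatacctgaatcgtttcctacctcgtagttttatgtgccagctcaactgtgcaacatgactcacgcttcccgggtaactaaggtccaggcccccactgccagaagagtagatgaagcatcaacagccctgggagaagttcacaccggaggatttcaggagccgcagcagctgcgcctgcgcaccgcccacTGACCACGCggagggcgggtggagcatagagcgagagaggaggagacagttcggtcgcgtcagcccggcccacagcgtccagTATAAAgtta
These windows are at chr10:33857472-33857771 (plus strand), chr9:78347096-78347395 (minus strand), chr1:167393792-167394091 (minus strand) and chr3:107895604-107895903 (plus strand) for the genes in the order shown.

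The 5 motifs were the core of the antioxidant response element that NRF2 binds, TGACNNNGC; a STAT-type palindrome, TTCNNNGAA; the HNF1-type palindrome; the direct repeat of the HNF4 and PPAR type; and the TATA box, TATAAA. Entries were found for 40 of the 46 members. TGACNNNGC matched 4 members (Gsta3, Gstm5, Gstm7 and Mgst1) and 12.4% of all 32851 promoter windows. TTCNNNGAA matched 5 members (Gsta1, Gstm6, Mgst1, Mgst2 and Sult3a1) and 8.3% of all windows. TATAAA matched 9 members and 13.6% of all windows. The 40 members had 51 windows in all, of which 4 held TGACNNNGC, 5 held TTCNNNGAA and 9 held TATAAA. The HNF1-type palindrome matched 0 members and 0.00913% of windows, and the HNF4 and PPAR type repeat matched 0 members and 0.0639% of windows. Among the printed windows, Gstm5 held TGACNNNGC from position -42 and TATAAA from position 40, Sult3a1 held TTCNNNGAA from position -109, Gsta2 held TATAAA on the opposite strand from position -246, and Mgst3 held none of the 5. A match is a description of the letters only. Of the 7 members with an entry that rose in enriched B6 livers, 1 held TGACNNNGC, 2 held TTCNNNGAA and 3 held TATAAA, and of the 4 that fell 1 held TATAAA.

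Dietary iron enrichment in B6 mice moved 13 of the 46 conjugation genes (28.3%, beside 5.83% of all tested genes). Higher calls numbered 8, beside 3.31% of all tested genes, and lower calls 5, beside 2.52%. Of the glutathione transferases 7 were higher and 1 was lower, of the UDP-glucuronosyltransferases 3 were lower, and of the sulfotransferases 1 was higher and 1 lower. The median log2 difference was 0.26 over the glutathione transferases, 0.04 over the UDP-glucuronosyltransferases and 0.25 over the sulfotransferases, beside 0.03 over all tested genes. Differences were positive for 17 of 22, 7 of 13 and 6 of 11 genes of these classes, beside 11827 of all 21071, so the sulfotransferases did not rise together. In D2 mice 0 of the 46 genes passed for the same diet change, beside 0.0902% of all tested genes (0.0712% higher and 0.019% lower), and 6 had an unadjusted p under 0.05. Without normalization between arrays, and within the third scan day, 1 member passed in D2, and the other settings tried gave 0. That day held 2 enriched D2 mice and 1 balanced D2 mouse, whose spread was taken to be like that of the other groups.

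**Figure D1:**
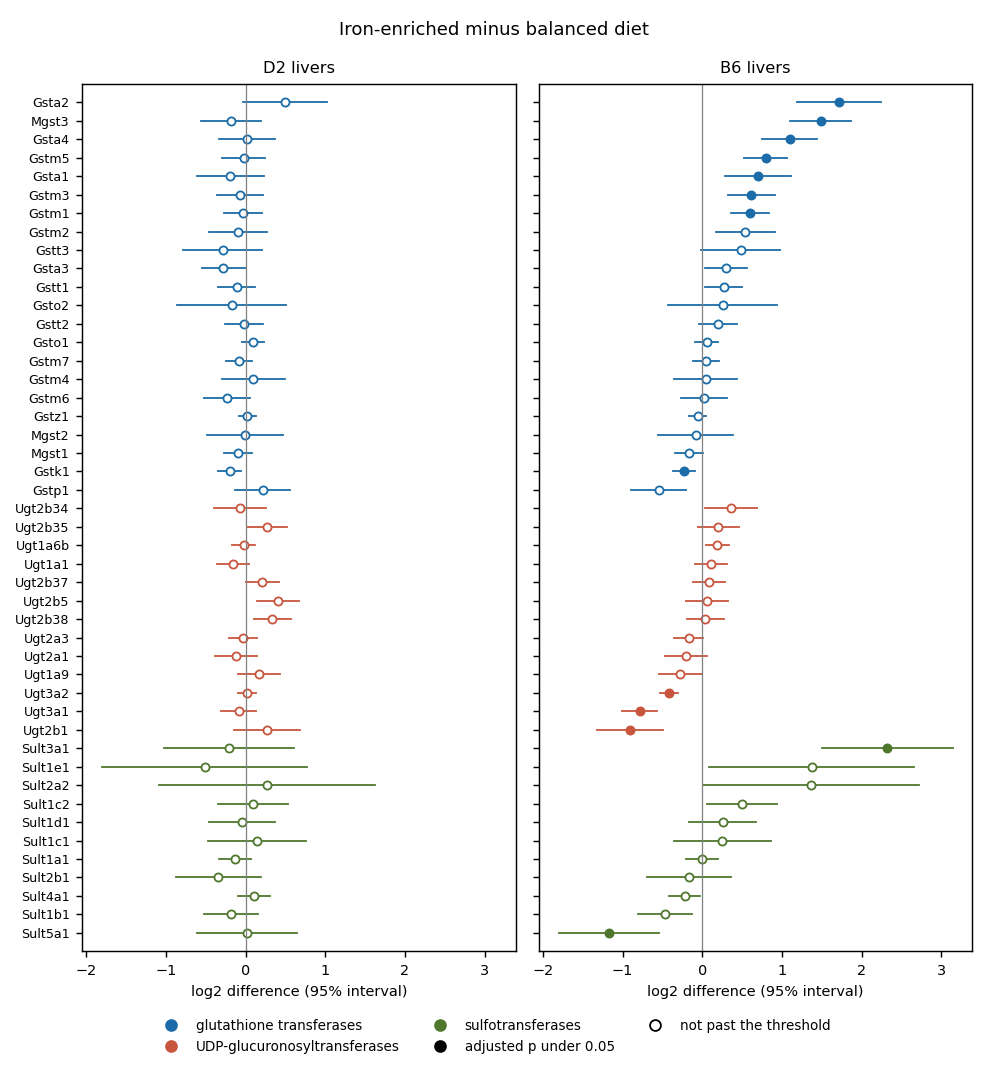
Log2 difference of each of the 46 genes between the iron-enriched and the balanced diet (horizontal axis, with 95% intervals), in D2 livers (left) and B6 livers (right), 5 mice a group. In B6 livers 13 points are filled (adjusted p under 0.05), with Sult3a1 at 2.32 and Sult5a1 at -1.17 as the extremes, and in D2 livers 0 are filled.

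Of the alpha-class transferases, which act on lipid peroxidation products and steroids, Gsta2 changed most. Its log2 level was 13.76, 13.20, 12.85, 13.00 and 12.92 in the 5 enriched B6 mice and 11.09, 11.51, 11.28, 12.06 and 11.21 in the 5 balanced B6 mice. The groups did not overlap, and the difference was 1.72 ± 0.26 (SE), a 3.29-fold rise (adjusted p = 8.79e-05). Gsta4, the transferase best known for clearing 4-hydroxynonenal, stood at 11.57, 11.50, 11.21, 11.10 and 11.36 in enriched B6 mice, against 9.87, 10.67, 10.56, 9.94 and 10.23 in balanced B6 mice. Again every enriched mouse lay above every balanced one, with a difference of 1.09 ± 0.17 (2.14-fold, adjusted p = 0.000162). Gsta1 rose by 0.70 ± 0.20 (adjusted p = 0.0392). That call was lost in 6 of the fits that left out 1 mouse, where the highest adjusted p was 0.124. Gsta3, an abundant liver form, had a difference of 0.29 that did not pass (adjusted p = 0.215).

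Of the mu-class transferases, which act on epoxides and other aromatic electrophiles, 3 rose in enriched B6 livers. Gstm5 read 12.68, 12.25, 12.54, 12.27 and 13.09 in enriched B6 mice, against 11.85, 12.00, 11.68, 11.48 and 11.83 in balanced B6 mice. The ranges were separate, and the difference was 0.80 ± 0.13 (1.74-fold, adjusted p = 0.000308). Gstm1 was higher by 0.60 ± 0.12 (adjusted p = 0.00191), and its other probe by 0.90. Gstm3 was higher by 0.61 ± 0.14 (adjusted p = 0.00902). In the RefSeq gene order, 7 mu-class members lie side by side with no other protein-coding gene between them, in the order Gstm5, Gstm7, Gstm6, Gstm3, Gstm2, Gstm1 and Gstm4. Within that row Gstm2 had a difference of 0.54 that did not pass (adjusted p = 0.0755), while Gstm4, Gstm6 and Gstm7 had differences of 0.04, 0.02 and 0.05. A second Gstm7 probe gave 0.33 and did not pass (adjusted p = 0.0561).

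Mgst3, a membrane-bound microsomal transferase with peroxidase activity, had log2 levels of 10.93, 10.90, 10.31, 10.48 and 10.98 in enriched B6 mice and 9.05, 9.71, 9.62, 8.57 and 9.24 in balanced B6 mice. No enriched mouse was as low as any balanced one, and the rise was 1.48 ± 0.18 (2.8-fold, adjusted p = 8.84e-06). A second Mgst3 probe gave 1.33 and passed, while another gave 0.32 on floored values and did not pass. That dim probe was well above background in 3 of 5 enriched and 0 of 5 balanced B6 mice, so it cannot size the rise. Gstk1, the mitochondrial and peroxisomal transferase, fell by 0.23 ± 0.07 on the log2 scale (adjusted p = 0.0397), and this call was lost in 6 of the fits without 1 mouse. Gstp1, the pi-class form, had a difference of -0.55 (adjusted p = 0.0547), and Mgst1 and Gstz1 had differences of -0.17 and -0.06, neither of which passed.

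The genes grouped as UDP-glucuronosyltransferases that passed in enriched B6 livers were all lower on the probe that stood for the gene. They were Ugt2b1 and the Ugt3 family genes Ugt3a1 and Ugt3a2. Ugt3a1, which in humans uses N-acetylglucosamine as its sugar, read 12.73, 13.03, 12.67, 12.53 and 12.83 in enriched B6 mice, against 13.72, 13.42, 13.74, 13.49 and 13.38 in balanced B6 mice. The 2 sets did not overlap, and the difference was -0.79 ± 0.10 (adjusted p = 2.15e-05). Its neighbour on the chromosome, Ugt3a2, read 14.37, 14.34, 14.40, 14.26 and 14.47 in enriched B6 mice and 14.87, 14.71, 14.79, 14.83 and 14.71 in balanced B6 mice. The Ugt3a2 ranges were separate too, with a small shift of -0.41 ± 0.06 (adjusted p = 2.39e-05), and a second probe gave -0.45.

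Ugt2b1, a steroid and xenobiotic glucuronidating form, read 13.37, 13.15, 13.22, 13.11 and 12.72 in enriched B6 mice and 13.51, 13.54, 14.25, 14.53 and 14.26 in balanced B6 mice. The lowest balanced mouse was just above the highest enriched one, and the difference was -0.91 ± 0.20 (adjusted p = 0.00569). Ugt2b34 and Ugt2b35, which flank it, had differences of 0.36 and 0.20, and neither passed. Ugt1a1, the bilirubin-conjugating enzyme, had a difference of 0.11 that did not pass (95% interval -0.10 to 0.31). The brightest probe of Ugt1a6b, a phenol-conjugating form, gave 0.19 (adjusted p = 0.123), and its other probe gave 0.38 and passed (adjusted p = 0.0404).

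Among the sulfotransferases, Sult3a1, an amine sulfotransferase of mouse liver, was near the floor in most groups. It read 5.50, 7.85, 7.08, 6.83 and 5.34 in enriched B6 mice, against 3.80, 4.37, 3.80, 4.58 and 4.43 in balanced B6 mice, of which 3 of 5 were well above background. All enriched mice lay above all balanced mice, with a rise of 2.32 ± 0.40 on floored values (adjusted p = 0.000496). Sult5a1, a sulfotransferase of uncertain substrate, read 8.01, 9.00, 8.24, 7.87 and 8.55 in enriched B6 mice, against 10.0033, 8.84, 8.78, 10.17 and 9.73 in balanced B6 mice. The highest enriched mouse lay above the 2 lowest balanced mice, and the fall was -1.17 ± 0.30 (adjusted p = 0.0186). The call was lost in 3 of the fits without 1 mouse. Sult1e1, the estrogen sulfotransferase, had a difference of 1.37 with a wide 95% interval of 0.09 to 2.66 (adjusted p = 0.239), and Sult1a1, a phenol sulfotransferase, had one of -0.01.

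**Figure D2:**
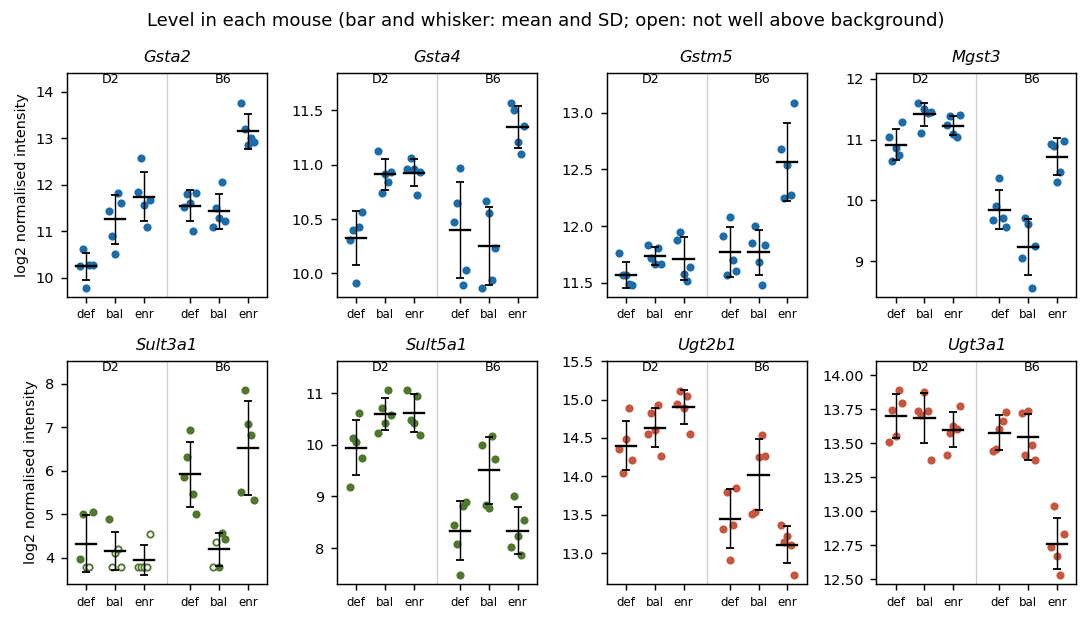
Log2 normalised intensity (vertical axis) of 8 members in each of the 30 mice, D2 on the left and B6 on the right of each panel, over the deficient (def), balanced (bal) and enriched (enr) diets; bars and whiskers are means and SD of 5 mice, and open circles were not well above background. Enriched B6 mice stand apart from balanced B6 mice in Gsta2, Gsta4, Gstm5, Mgst3, Sult3a1, Ugt2b1 and Ugt3a1.

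Alas2, the 1 erythroid gene tested of 5, was lower than on the balanced diet in enriched (-1.35) and in deficient B6 livers (-0.79). In D2 livers it did not pass on either diet (0.31 enriched, -0.44 deficient). The part of Alas2 in the conjugation results was not tested.

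The mice of a group were scanned on up to 3 days, so the values were also taken within a day. On the day with 4 enriched and 3 balanced B6 mice, the differences were 1.54 for Gsta2, 1.03 for Gsta4, 1.5 for Mgst3, -0.73 for Ugt3a1 and -0.37 for Ugt3a2, and these 5 passed (adjusted p = 0.0213 for Mgst3). With the slide as a block, B6 enrichment called 14 members, 9 higher and 5 lower. Fitting the 2 B6 groups alone left 6 calls, 4 higher and 2 lower.

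Liver genes that differ between the sexes moved with these changes. Of 9 tested genes that are higher in male mouse liver, 7 were lower and 0 higher in enriched B6 livers, with a median of -1.58. Their summed intensity ran from 414577 to 524330 in enriched B6 mice and from 664002 to 903606 in balanced B6 mice. Hsd3b5, a male-predominant steroid enzyme, averaged 3.81 ± 0.015 in enriched B6 mice, at the floor, and 10.90 ± 0.94 in balanced B6 mice (SD, n = 5 each). Of 10 genes higher in female liver, 3 were higher and 0 lower, with summed intensities of 777036 to 949802 in enriched and 400304 to 676183 in balanced B6 mice. Their part in the conjugation results was not tested. In D2 mice 0 of the 9 male-predominant and 0 of the 10 female-predominant genes passed for enrichment.

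In D2 mice the enrichment values were small for most members. Gsta2 read 11.84, 12.57, 11.56, 11.10 and 11.67 in enriched D2 mice, against 11.43, 10.90, 10.52, 11.82 and 11.60 in balanced D2 mice. The groups overlapped, and the difference of 0.49 had a 95% interval of -0.03 to 1.02 (adjusted p = 0.93). Mgst3, Gsta4 and Gstm5 had D2 differences of -0.19, 0.01 and -0.03. Ugt2b5, Ugt2b38, Ugt2b35 and Ugt2b37 had differences of 0.40, 0.34, 0.27 and 0.21 at unadjusted p under 0.05, as had Gstk1 at -0.20 and Gsta3 at -0.28, and none of these passed the adjustment. Second probes gave -0.01 for Gsta3, so its fall is uncertain, and 0.44 for Ugt2b37.

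The difference between the strains' enrichment effects was tested directly, as the effect in D2 minus that in B6. It passed for 7 of the 46 members (15.2%, beside 1.11% of all tested genes), 3 with a positive difference (beside 0.427%) and 4 with a negative one (beside 0.683%). The difference was -2.53 ± 0.56 for Sult3a1, -1.67 ± 0.26 for Mgst3, -1.08 ± 0.24 for Gsta4 and -0.82 ± 0.19 for Gstm5, each of which rose in B6. The Sult3a1 value rests on floored levels in D2, where 0 of 5 enriched and 1 of 5 balanced mice were well above background. It was 1.18 ± 0.28 for Ugt2b1, 0.70 ± 0.15 for Ugt3a1 and 0.43 ± 0.08 for Ugt3a2, all of which fell in B6. The adjusted p was lowest for Mgst3 (0.00112) and highest for Ugt2b1 (0.0368). Without balanced D2 mouse 1 the count dropped to 3, and with the slide as a block it was 4. The Ugt2b1 call was lost in 13 and the Gstm5 call in 4 of the fits without 1 mouse. Gsta2, which rose most of the transferases in B6, did not pass this test (-1.23 ± 0.36, adjusted p = 0.103). Of the male-predominant genes 5 of 9 also passed it, all with a positive difference, and of the female-predominant genes 0 of 10 did.

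Averaged over both strains, enrichment called 8 members (17.4%, beside 2.23% of all tested genes), 5 higher (beside 1.21%) and 3 lower (beside 1.01%). Gsta2 (1.11 ± 0.18), Sult3a1 (1.06 ± 0.28), Mgst3 (0.65 ± 0.13), Gsta4 (0.55 ± 0.12) and Gstm5 (0.39 ± 0.09) were higher. Ugt3a1 (-0.44 ± 0.07), Gstk1 (-0.22 ± 0.05) and Ugt3a2 (-0.20 ± 0.04) were lower. Second probes of Gstm1 (0.48) and Ugt1a6b (0.33) passed although the probes that stood for these genes did not. A second Ugt3a2 probe (-0.20) did not pass. Against the balanced mean of the same strain, Gstk1 was lower in 10 of 10 enriched mice and Gsta2 higher in 9 of 10, whereas Mgst3 was higher in 5 of 10. Of the male-predominant genes 4 of 9 were lower and 0 higher, and of the female-predominant genes 0 of 10 passed. With the slide as a block 3 calls were left. The Sult3a1 call was lost in 16 of the fits without 1 mouse and rests on floored values in D2.

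On the iron-deficient diet Ugt1a1 was higher and Sult4a1, on its brighter probe only, lower than on the balanced diet, also with the slide as a block. The deficiency comparisons share the balanced mice with the enrichment comparisons, so the values are set side by side only. Averaged over strains, 6 members passed (13%, beside 8.08% of all tested genes), 2 higher (beside 3.89%) and 4 lower (beside 4.2%). Ugt1a1 was higher by 0.35 ± 0.07 in 10 of 10 deficient mice, and Sult3a1 by 0.95 ± 0.28 in 7 of 10. Sult5a1 (-0.91 ± 0.21), Gstp1 (-0.52 ± 0.12), Sult4a1 (-0.27 ± 0.07) and Ugt2a3 (-0.26 ± 0.06) were lower. With the slide as a block 2 calls were left, Ugt1a1 and Sult4a1. The Sult4a1 probe that stood for the gene was well above background on 30 arrays. Its other probe, for the same transcript, was so on 0 arrays and averaged 3.80, the floor, in every group. Which of these probes measures Sult4a1 was not tested, so its fall is uncertain. The Sult3a1 call was lost in 9 of the fits without 1 mouse, and 3 of 5 deficient and 1 of 5 balanced D2 mice were well above background for it.

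In B6 mice deficiency called 4 members (8.7%, beside 1.79% of all tested genes), 1 higher (beside 1.11%) and 3 lower (beside 0.683%). Gstp1 read 17.36, 17.04, 16.91, 17.67 and 17.79 in deficient B6 mice and 18.36, 17.97, 17.97, 18.47 and 17.89 in balanced B6 mice. No values overlapped, the fall was -0.78 ± 0.17 (adjusted p = 0.0149), and its second probe gave -1.09. Sult3a1 read 5.86, 6.32, 6.94, 5.48 and 5.01 in deficient B6 mice, all above the balanced B6 mice given earlier, with a rise of 1.72 ± 0.40 (adjusted p = 0.0221). Sult5a1 (-1.16 ± 0.30) and Sult4a1, a brain-type sulfotransferase (-0.37 ± 0.10, on its brighter probe only), were lower. All 4 calls were lost with the slide as a block and when only the 2 B6 groups were fitted, and leaving out deficient B6 mouse 3 also left 0. Only 2 were left without balanced B6 mouse 4 or 5, deficient B6 mouse 2 or 4, or enriched D2 mouse 2 or 3.

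Of the 9 male-predominant genes 2 were lower and 0 higher in deficient B6 livers, with Hsd3b5 at 7.35 ± 1.97 in deficient and 10.90 ± 0.94 in balanced B6 mice (SD, n = 5 each). Of the 10 female-predominant genes 0 passed. The part of these genes in the Sult3a1 and Gstp1 values was not tested.

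In D2 mice deficiency called 5 members (10.9%, beside 4.68% of all tested genes), 1 higher (beside 1.78%) and 4 lower (beside 2.89%). Gsta2 read 10.25, 10.63, 9.79, 10.27 and 10.28 in deficient D2 mice, against 11.43, 10.90, 10.52, 11.82 and 11.60 in balanced D2 mice. The groups overlapped by 1 mouse each, and the fall was -1.01 ± 0.26 (adjusted p = 0.0216). Gsta4 (-0.59 ± 0.17), Ugt2a3 (-0.29 ± 0.09) and Gstk1 (-0.26 ± 0.07) were also lower, and Ugt1a1 was higher by 0.35 ± 0.10. The Ugt2a3 call was lost in 23 and the Gsta4 call in 19 of the fits without 1 mouse. Those of Ugt1a1, Gstk1 and Gsta2 were lost in 8, 4 and 3. Fitting the 2 D2 groups alone or leaving out balanced D2 mouse 5 left 0 calls, and 3 or fewer were left without any one of the other D2 mice, balanced B6 mouse 5, enriched B6 mouse 2 or 3, or deficient B6 mouse 1. Of the 9 male-predominant genes 1 was higher and 1 lower, and of the 10 female-predominant genes 0 passed. The B6 deficiency differences were 0.12 for Gsta2, 0.15 for Gsta4, 0.08 for Gstk1 and 0.34 for Ugt1a1. Ugt2a3 averaged 15.12 in deficient and 15.35 in balanced B6 mice, so it was lower there too. When the deficiency effects of the strains were compared directly, 0 of 46 members passed in limma, beside 0.019% of all tested genes, and 14 had an unadjusted p under 0.05.

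Enriched against deficient livers, averaged over strains, called 13 members (28.3%, beside 8.84% of all tested genes), 10 higher (beside 4.68%) and 3 lower (beside 4.16%). The 6 transferases that passed were all higher: Gsta2 (1.55 ± 0.18), Gsta4 (0.77 ± 0.12), Mgst3 (0.59 ± 0.13), Gstm5 (0.47 ± 0.09), Gstm3 (0.38 ± 0.10) and Gstm1 (0.36 ± 0.08). Gsta2, Gsta4, Mgst3 and Gstm1 exceeded the deficient mean of the same strain in 10 of 10 enriched mice. Of the male-predominant genes 3 of 9 were lower and 0 higher, and of the female-predominant genes 1 of 10 was higher and 0 lower. The UDP-glucuronosyltransferases split: Ugt2b5 (0.41), Ugt2b38 (0.34), Ugt2b37 (0.28) and Ugt2b35 (0.28) were higher, while Ugt3a1 (-0.46), Ugt1a1 (-0.37) and Ugt3a2 (-0.29) were lower. For Ugt1a6b the brightest probe gave 0.05 and did not pass, and its other probe gave 0.48 and passed. Of the sulfotransferases 0 of 11 passed, and 3 had an unadjusted p under 0.05. With the slide as a block 8 of the 13 calls were left, and without normalization between arrays 7 members passed. The Ugt2b35 call was lost in 12 of the fits without 1 mouse (highest adjusted p = 0.0885).

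**Figure D3:**
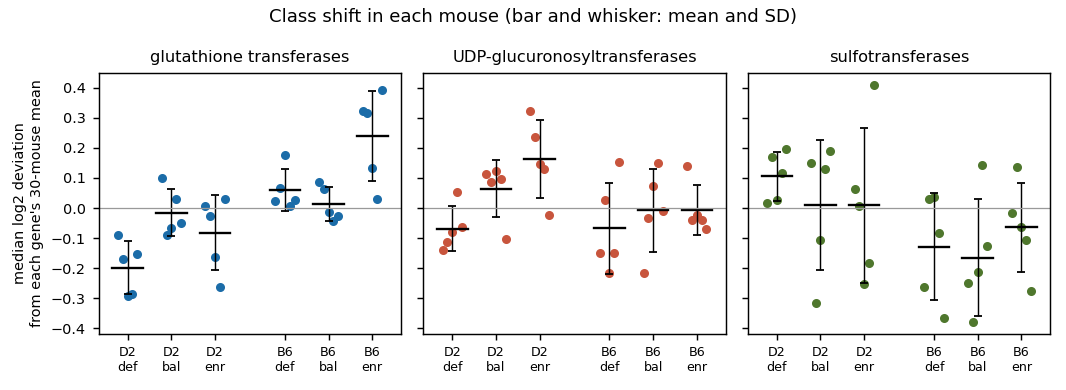
Median over the genes of a class of the log2 deviation from each gene's mean over all 30 mice (vertical axis), 1 point per mouse in each strain and diet group, with the mean and SD of 5 mice. The glutathione transferase median was 0.24 ± 0.15 in enriched B6 mice, 0.01 ± 0.06 in balanced B6 mice and -0.20 ± 0.09 in deficient D2 mice.

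The median deviation of the transferases ran from 0.03 to 0.39 in enriched B6 mice and from -0.04 to 0.09 in balanced B6 mice, so the groups overlapped. In D2 mice it ran from -0.29 to -0.09 on the deficient diet, from -0.09 to 0.10 on the balanced diet and from -0.26 to 0.03 on the enriched diet. The other two classes overlapped between all diets within each strain.

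Between the strains, Ugt1a9, Sult1c2 and Sult5a1 stood highest in D2 relative to B6, and Sult1d1 and Ugt1a1 lowest, among the 43 members well above background on all arrays. Averaged over diets, 27 members passed (58.7%, beside 50.1% of all tested genes), a share close to the background, with 12 higher (beside 25.9%) and 15 lower (beside 24.2%). Of the 13 transferases that passed, 10 were lower in D2, and of the 7 UDP-glucuronosyltransferases 5 were higher in D2. Ugt1a9, a phenol and drug glucuronidating form, ran from 13.48 to 14.10 in the 15 D2 mice and from 11.37 to 12.21 in the 15 B6 mice. No D2 mouse came near a B6 mouse, and the D2 excess was 2.00 ± 0.07 (4.01-fold, adjusted p = 1.98e-18).

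Sult1c2 ran from 10.58 to 11.56 in D2 mice and from 8.27 to 9.99 in B6 mice, with a difference of 1.83 ± 0.12 (3.57-fold). Sult5a1 (1.66 ± 0.17), Mgst3 (1.26 ± 0.11), Ugt2b1 (1.12 ± 0.12) and Sult1b1, a thyroid hormone sulfotransferase (0.59 ± 0.10), were also higher in D2. Ugt1a1 ran from 12.19 to 13.07 in D2 mice and from 13.25 to 14.00 in B6 mice, a separation of -1.13 ± 0.06. Sult1d1, a catecholamine sulfotransferase in the mouse (-1.32 ± 0.12), Gsta2 (-0.96 ± 0.15), Gsto1, which reduces dehydroascorbate (-0.95 ± 0.04), Gstt3 (-0.86 ± 0.14) and Gsta1 (-0.76 ± 0.12) were lower in D2. Gsto1 was lower than the B6 mean in 15 of 15 D2 mice.

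**Figure D4:**
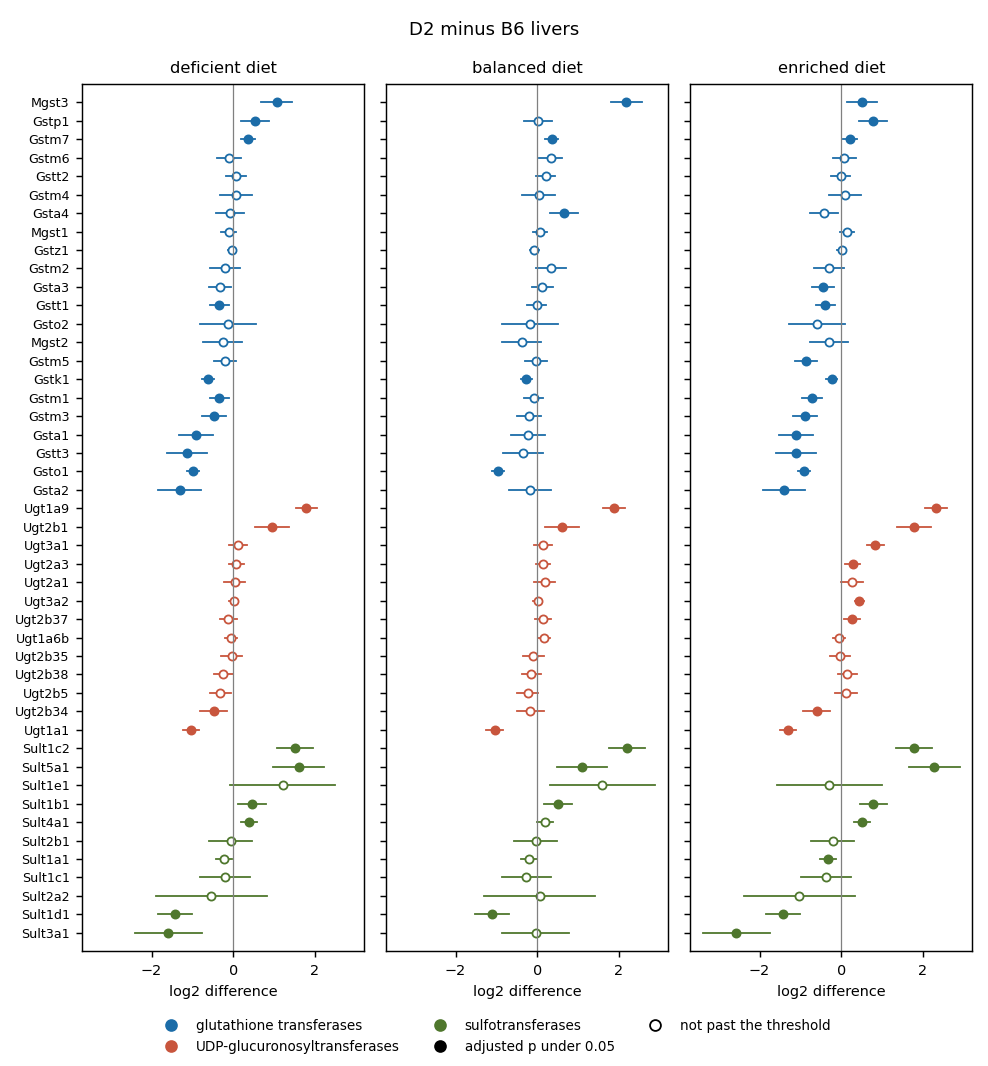
Log2 difference of each member between D2 and B6 livers on the deficient, balanced and enriched diets (horizontal axes, lines are 95% intervals, 5 mice a group). Ugt1a9 and Sult1c2 lie above 1.5 and Gsto1 and Ugt1a1 below -0.91 on all 3 diets, while Mgst3, on the probe plotted, narrows to 0.51 on the enriched diet.

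The number of members that differed between strains was 21 on the deficient diet (45.7%, beside 28.4% of all tested genes), 12 on the balanced diet (26.1%, beside 30.1%) and 28 on the enriched diet (60.9%, beside 35.5%). On the deficient diet 9 were higher (beside 14.8%) and 12 lower (beside 13.6%), on the balanced diet 8 were higher (beside 17.2%) and 4 lower (beside 12.9%), and on the enriched diet 13 were higher (beside 18.1%) and 15 lower (beside 17.3%). Mgst3 exceeded B6 by 1.07, 2.18 and 0.51 on the deficient, balanced and enriched diets. For Gsta2 the difference was -1.31, -0.17 and -1.40 on those diets. The Mgst3 call on the enriched diet was lost in 4 of the fits without 1 mouse. A second Mgst3 probe gave 0.37 on that diet and did not pass, and another, near the floor in B6, gave 1.51. The size of that Mgst3 difference is thus uncertain. On the enriched diet Sult3a1 was not well above background in any of the 5 D2 mice. With the dim mice set no lower than the lowest signal well above background on their array, enriched B6 livers stood 5.33-fold higher. This is not a firm lower bound, since 1 enriched D2 mouse read 4.56 without being well above background. That value covers the enriched diet only.

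Probes of a gene did not always match. The 2 probes of Ugt1a6b gave D2 minus B6 differences of 0.02 and -1.44, and those of Ugt2b37 gave 0.10 and -0.24, so the strain difference of these genes is uncertain. A base difference between the strains under a probe was not tested. All 7 tested Kupffer cell and macrophage genes were lower in D2 (median -0.71), with summed intensities of 31236 to 46965 in D2 and 48467 to 104184 in B6 mice. All 5 sinusoidal endothelium genes (median -0.26) and 3 of 5 tested cholangiocyte genes (median -0.52) were also lower, and Alas2, the 1 erythroid gene tested, was higher (1.46). Of the male-predominant genes 8 of 9 were higher in D2, and of the female-predominant genes 8 of 10 were lower and 1 higher. By diet, 6, 2 and 8 of the 9 male-predominant genes were higher and 6, 3 and 8 of the 10 female-predominant genes lower in D2 on the deficient, balanced and enriched diets. The part of these genes in the strain differences was not tested.

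Other genes of the pathways were read in the same fits. Beside the counts below, 3.31% of all tested genes were higher and 2.52% lower in enriched B6 livers. Of 13 tested genes of glutathione supply and breakdown, 1 was higher and 1 lower in enriched B6 livers. Gclc, the catalytic subunit of the rate-limiting step of glutathione synthesis, was higher by 0.59, and the aminopeptidase Lap3 was lower (-0.33). Of 8 conjugate exporters 4 were higher and 1 lower. Abcb1a (1.45), Abcc4 (1.38), Abcc3 (0.56) and Abcc5 (0.34) were higher, and Abcg2 was lower (-0.40).

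Of 13 NRF2 targets outside the conjugation enzymes 3 were higher and 0 lower in enriched B6 livers: the aldo-keto reductase Akr1b8 (2.04), the quinone reductase Nqo1 (0.99) and the ferritin light chain Ftl1 (0.54). In enriched D2 livers 1 of the 13 passed, Akr1b8 (0.89), beside 0.0902% of all tested genes. The effect on Akr1b8 differed between strains by -1.15, and that on Abcc4 by -1.25. Nfe2l2, which encodes NRF2, was higher by 0.34 in enriched B6 livers. It was the single call among 14 regulators, a share near the 5.83% of all tested genes called. Of 10 genes of sulfate supply and hydrolysis 1 passed in B6, the sulfatase Arsa, at -1.03, and 0 of 4 genes of UDP-glucuronic acid supply did. The same 5.83% stands beside these counts.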

How the data were processed

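RNA of 30 livers was read on 1-colour Agilent 4x44K arrays. The deposited values are processed signal intensity on a linear scale, background-subtracted per the file headers (Feature Extraction 9.1.3.1). The background and outlier flags are other values deposited in the same files. The authors normalised by the quantile method, per the series' design text, and fitted strain, diet and their interaction with R/maanova, which was not run here.

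Here outlier and control spots were left out, spots of a probe averaged, and signals quantile normalised, raised to a floor of 13.9 and log2 transformed. Probes well above background on at least 3 arrays of each strain were kept (29986), and the brightest kept probe stood for a gene (21071 genes). One limma 3.58.1 fit (R 4.3.3) of 6 group means on 30 arrays gave 13 comparisons. The same fit was run on simulated data as a check of the code. Those data held no slide effect, scan-day effect or floor, so they say nothing on the calls made here. Names came from RefSeq (GRCm38.p6): 22951 probes matched by accession, 6659 by symbol, and 11564 kept the file's name.

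The members, the gene lists and the naming rule were chosen with earlier results of these data known. That rule asked for each member that passed, up to 10 per class and comparison, a set of well-known members, and up to 4 genes of each other list. In the diet comparisons each member that passed is named. Between the strains only some of them are named, so a member not named there may also have passed. Replicate numbers follow accession order and pair no mice. Precision rests on 5 arrays a group. The motifs, and the promoters shown, were chosen after the values were seen.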

Additional observations from a re-analysis of the deposited data

Results flagged for a closer look

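Within a group of 5 mice, a mouse was picked out where its gap to the nearest other mouse took up most of the group's range (Dixon's test). This happened in 15 of 276 groups of values, and chance alone picks out about 1 in 20. All values are log2 levels. In deficient D2 mice, mouse 2 was high for Gstm4 (10.73, others 10.34 to 10.40) and Gstz1 (15.20, others 15.06 to 15.08), and mouse 1 was high for Gstm6 (11.17, others 10.80 to 10.88). In enriched D2 mice, mouse 5 was high for Sult1d1 (14.10) and Ugt1a1 (12.62). Its Sult3a1 value (4.56) was picked out too, but neither it nor the other 4 mice, all at the floor, were well above background, so no mouse can be called high. In balanced D2 mice, mouse 5 was low for Gstm6 (10.88), Mgst2 (4.79) and Ugt2b35 (13.30) and high for Sult4a1 (9.42), and mouse 1 was the only one well above background for Sult2a2 (4.84). In enriched B6 mice, mouse 1 was high for Ugt2b37 (16.18, others 15.87 to 15.92). In deficient B6 mice, mouse 2 was low for Gstm7 (9.26) and mouse 3 was high for Sult2a2 (8.22, others 3.80 to 4.20). In balanced B6 mice, mouse 3 was the only one well above background for Sult2a2 (4.79, others at the floor of 3.80).

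For 7 members the enrichment effect differed between strains in a direct test, given as the effect in D2 minus that in B6. The values were -2.53 for Sult3a1, -1.67 for Mgst3, -1.08 for Gsta4, -0.82 for Gstm5, 1.18 for Ugt2b1, 0.70 for Ugt3a1 and 0.43 for Ugt3a2.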

How the results depend on the processing

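Counts of called members are given; the cause of a changed count was not tested. Without normalization the counts were 4 for enrichment averaged over strains, 1 for it in D2, 2 for deficiency in B6, 2 for it in D2 and 7 for enriched against deficient. With normexp they were 2 for deficiency in B6 and 3 in D2. Fitting the compared groups only gave 6 for enrichment in B6 and 0 for deficiency in either strain. With the slide as a block they were 3 for averaged enrichment, 2 for averaged deficiency, 0 for deficiency in B6, 2 in D2, 8 for enriched against deficient and 4 for the strain difference in enrichment.

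Within scan day 2 the count was 0 for averaged enrichment, enrichment in B6, deficiency averaged and in either strain, enriched against deficient and the strain difference in enrichment; D2 against B6 gave 12 on the deficient, 7 on the balanced and 6 on the enriched diet. Within scan day 3 it was 1 for averaged enrichment, 5 for enrichment in B6, 1 in D2, 2 for averaged deficiency, 0 for deficiency in either strain, 3 for enriched against deficient and 1 for the strain difference in enrichment; D2 against B6 gave 11 on the deficient and 7 on the balanced diet. Day 2 held 1 balanced B6, 1 enriched B6 and 1 enriched D2 mouse, and day 3 held 1 balanced D2 mouse. A lone mouse was assumed to vary like the other groups, so these counts say little about stability.

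Leaving out 1 mouse at a time gave 0 to 4 calls for deficiency in B6, 0 to 5 for deficiency in D2 and 3 to 8 for the strain difference in enrichment. D2 minus B6 turned sign for Sult2b1 within scan day 3 (0.32 averaged, 0.83 on the balanced diet, with 1 balanced D2 mouse and levels near background), for Ugt1a6b with a gene's probes averaged (-0.71 averaged, -0.61 on the balanced diet) and for Gstz1 on the enriched diet without normalization (-0.18). No paired analysis was possible because the replicate numbers follow accession order and pair no mice.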
